A study of Homo sapiens with 9 samples.

Results

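The 10 genes described here are MUC1, MUC15, MUC16, MUC20, CEACAM1, CEACAM5, CEACAM6, PSCA, CD24 and AGR2. Apart from AGR2, which encodes a protein of the endoplasmic reticulum, they encode antigens and mucins of the luminal surface of epithelia. All 10 were taken by symbol from the 19775 genes with a probe set of their own on the array. All 28 probe sets annotated to them were used. They were selected on earlier results of these data, the differences in signal between the cell lines. Their signals and changes are therefore given as descriptions, without p-values.

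Total RNA of 3 human breast epithelial cell lines was measured on 1-colour Affymetrix expression arrays, with 3 arrays per line. The labels give MII (MCF-10AT1Kcl2) as carcinoma in situ, MIII (MCF-10A1h) as carcinoma and MIV (MCF-10A1a) as metastatic carcinoma. All of them belong to the MCF-10A series, which began from a non-tumorigenic breast epithelial line and is known to carry activated HRAS. They were grown without treatment in 1 common DMEM/F12 medium with horse serum, insulin, cholera toxin, epidermal growth factor and a corticosteroid. Each stage is represented by 1 line, so the stage and the line cannot be told apart, and the labels do not say whether the 3 biological replicates of a line came from separate cultures.

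Mucins are long, heavily O-glycosylated glycoproteins that cover the apical side of epithelial cells. MUC1, MUC15, MUC16 and MUC20 span the membrane, whereas CEACAM5, CEACAM6, PSCA and CD24 are held there by a glycosylphosphatidylinositol (GPI) anchor and CEACAM1 has a transmembrane segment. AGR2 is not a surface protein but a protein disulfide isomerase of the endoplasmic reticulum, which in mouse intestine is needed to make the secreted mucin MUC2. In breast cancer, MUC1 carries the CA15-3 antigen, MUC16 carries CA125 and CEACAM5 is the carcinoembryonic antigen, while low CD24 together with high CD44 marks cells with mesenchymal traits.

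The signals are MAS5 values on a linear scale, and the pooled median of all values, 69.3, serves as a mark for dim signals, since detection calls were not used here. Log2 changes were computed as log2(signal + 18.3), which understates the change of dim genes. A gene was called where limma gave an adjusted p under 0.05 together with a difference of 2-fold or more. The medians of single arrays were 69.0 to 71.7 (MII), 72.1 to 74.9 (MIII) and 64.7 to 65.2 (MIV), and the number of arrays limits the precision. In bulk RNA, fewer cells with a transcript and less transcript per cell cannot be told apart.

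Of the 10 genes, 8 passed the intensity filter, which asked for a signal above the pooled median on at least 3 of 9 arrays. MUC15 and MUC20 did not pass. MUC16 passed through its MII arrays alone, so a difference from the other lines was built into its selection. In MIV against MIII, 6 of the 8 were called higher, against 4.95% of the 12594 genes tested, and MUC1 was called lower, against 7.79%, where 12.7% of all genes were called in either direction. All 8 were called lower in MIV than in MII, against 5.18% of all genes (8.14% called in either direction, 2.96% higher). All 8 were also called lower in MIII than in MII, against 5.55% of all genes (11.7% in either direction, 6.17% higher). Since the genes were chosen for such differences, nothing is read from these counts.

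The arrays of MIV and MIII did not overlap for any of the 8 genes, with MIV above MIII in 7, against 28.4% of all genes, and below it in MUC1, against 30.4%. Among the 7 is MUC16, whose MIV and MIII arrays all lay far under the pooled median, so its order of these lines is uncertain. Non-overlapping arrays with MIV below MII were found for all 8 genes and for 27.1% of all genes (23.7% with MIV above). MIII lay below MII in the same way for all 8 genes, against 28.6% of all genes (26.7% with MIII above). The 3 comparisons share arrays, and each is the difference of the others. The median log2 difference of the 8 genes was 1.80 for MIV against MIII, -2.73 for MIV against MII and -4.52 for MIII against MII. Over all genes tested these medians were -0.012, -0.027 and -0.016.

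The order of the line means was MII, then MIV, then MIII for 7 of the 8 genes and for 17.9% of all genes tested. The 7 again include MUC16, with its uncertain order of MIV and MIII. MUC1 had the order MII, MIII, MIV, as had 15.1% of all genes. Calls in all 3 comparisons for the first order (MIV between MIII and MII) were carried by 6 of the 8 genes and by 56 of 12594 genes. MUC1 was among 34 genes called lower at each step in the order of the stages.

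**Figure D1:**
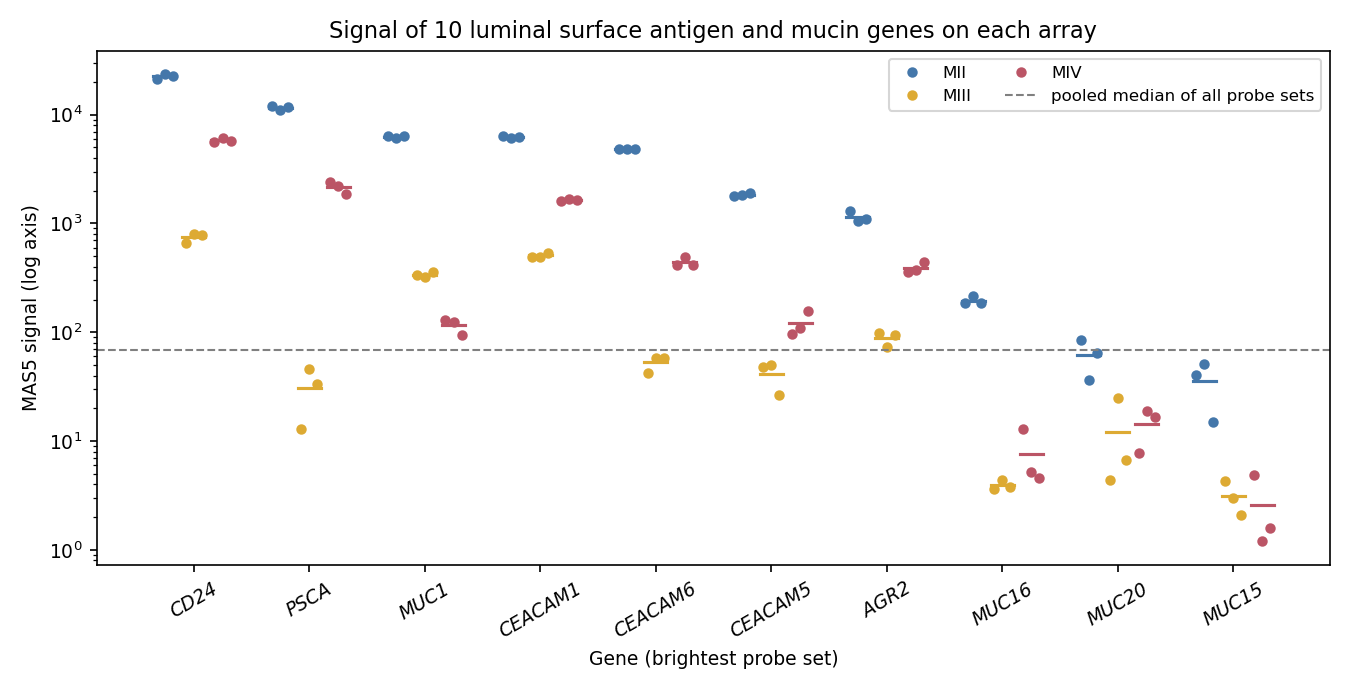
MAS5 signal on a log axis for the brightest probe set of each gene, with 1 point per array, a short bar at the line mean, and MII, MIII and MIV from left to right within each gene; the dashed line is the pooled median of 69.3. The MII arrays were above the MIII and MIV arrays for every gene shown, and MUC1 is the gene whose MIV arrays lay below its MIII arrays among the 8 that passed the filter.

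The CEACAM genes form a cluster on chromosome 19 and arose by duplication. The 250 bases upstream of their starts are printed because CEACAM1, CEACAM5 and CEACAM6 shared an order of levels but kept different shares of their MII signal in MIV. MUC1 is printed as the gene with another order. Capitals mark the E-box CACGTG in the CEACAM sequences, and in MUC1 the GC box GGGCGG and the TATA box TATAAA. The sequences are from RefSeq (GRCh38.p14) and run 5′ to 3′ on the strand of the gene. They cover chr19:42528482-42528731 (minus strand) for CEACAM1, chr19:41708376-41708625 (plus strand) for CEACAM5, chr19:41755280-41755529 (plus strand) for CEACAM6 and chr1:155192916-155193165 (minus strand) for MUC1.
CEACAM1: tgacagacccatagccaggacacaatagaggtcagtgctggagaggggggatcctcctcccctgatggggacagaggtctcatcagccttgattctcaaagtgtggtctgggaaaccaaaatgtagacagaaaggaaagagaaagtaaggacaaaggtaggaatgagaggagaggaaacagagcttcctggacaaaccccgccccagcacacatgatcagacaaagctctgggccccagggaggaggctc
CEACAM5: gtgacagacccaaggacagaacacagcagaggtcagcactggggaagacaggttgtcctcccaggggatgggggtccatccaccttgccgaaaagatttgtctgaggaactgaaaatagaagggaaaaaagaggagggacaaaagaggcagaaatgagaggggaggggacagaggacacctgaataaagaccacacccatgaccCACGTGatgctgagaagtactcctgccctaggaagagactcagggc
CEACAM6: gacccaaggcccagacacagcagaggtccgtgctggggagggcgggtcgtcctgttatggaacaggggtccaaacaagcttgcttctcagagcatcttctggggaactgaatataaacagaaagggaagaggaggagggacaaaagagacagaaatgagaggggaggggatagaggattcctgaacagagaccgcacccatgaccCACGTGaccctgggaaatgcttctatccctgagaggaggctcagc
MUC1: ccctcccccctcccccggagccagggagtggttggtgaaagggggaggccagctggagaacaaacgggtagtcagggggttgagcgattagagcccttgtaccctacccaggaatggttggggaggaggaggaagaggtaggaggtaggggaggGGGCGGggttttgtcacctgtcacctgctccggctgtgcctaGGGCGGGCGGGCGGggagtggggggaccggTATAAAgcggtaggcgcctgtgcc

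In a global alignment, the CEACAM5 and CEACAM6 sequences were identical at 73.6% of alignment columns, CEACAM1 and CEACAM6 at 67.6%, and CEACAM1 and CEACAM5 at 63.5%. The other pairs among the 7 genes with a promoter entry had between 40.5% and 48.9%. CACGTG, a site that factors such as USF and MYC can bind, begins 46 bases upstream of the start in CEACAM5 and 45 bases upstream in CEACAM6. It was not found in the CEACAM1, MUC1, MUC16, CD24 or AGR2 windows, and 6.34% of 35116 promoter windows of that length hold it. The MUC1 window holds 4 matches of GGGCGG, of which 3 overlap each other, and a TATAAA that begins 24 bases upstream of the start. With both strands searched, GGGCGG was also found once each in CEACAM1 (52 bases upstream), CEACAM6 (211), MUC16 (47) and CD24 (99), and TATAAA in CEACAM6 (139). The CEACAM1 match is on the opposite strand and reads CCGCCC in the printed sequence. In the printed CEACAM sequences these matches are left in lower case. On either strand, GGGCGG was found in 42.6% of all windows and TATAAA in 10.7%. The STAT motif TTCNNNGAA was in none of the member windows and in 6.57% of all. These matches describe letters and not binding.

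MUC1, a transmembrane mucin that is shed from the cell surface and can signal through its cytoplasmic tail, was the one gene of the 8 that was lowest in MIV. Its brightest probe set gave 6384, 6084 and 6362 in MII, 333, 321 and 355 in MIII, and 129, 125 and 94.9 in MIV. No line overlapped another, and the mean in MIV was 1.86% of the mean in MII. On the log2 scale, MIV differed from MIII by -1.40 ± 0.11 (SE) and from MII by -5.55 ± 0.11, and MIII differed from MII by -4.15 ± 0.11. The other probe sets gave the same order of lines, with log2 changes of -1.69 ± 0.13 and -0.75 ± 0.18 in MIV against MIII. The smaller one, on a probe set with MIV signals of 58.6 to 69.2, was short of 2-fold. All MUC1 probe sets have a suffix (_s_at or _x_at), which marks probes that can match more than 1 transcript.

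MUC16, a very large transmembrane mucin that binds mesothelin, was above the pooled median in MII alone. Its single probe set gave 185, 216 and 184 in MII, 3.6, 4.4 and 3.8 in MIII, and 13.0, 5.2 and 4.6 in MIV. All MIII and MIV arrays lay far under the pooled median, where the order of signals is uncertain. The log2 difference was 0.21 ± 0.36 (SE) for MIV against MIII, -3.05 ± 0.36 for MIV against MII and -3.26 ± 0.36 for MIII against MII. These sizes depend on the offset: MIV against MII gave -4.64 with an offset of 1 and -1.78 with the pooled median, and MIII against MII gave -5.31 and -1.85.

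MUC15 and MUC20, further membrane mucins, were dim in every line. The brighter MUC15 probe set gave 40.3, 51.2 and 14.9 in MII, 4.3, 3.0 and 2.1 in MIII, and 4.9, 1.2 and 1.6 in MIV. Its second probe set gave 19.0 to 43.9 in MII and 0.9 to 4.5 in the other lines. The brightest of 4 MUC20 probe sets gave 84.9, 36.4 and 64.6 in MII, 4.4, 25.1 and 6.7 in MIII, and 7.7, 18.9 and 16.5 in MIV. A single MUC20 array exceeded the pooled median. The probe set next in brightness did not place MII highest, with means of 15.2 ± 12.6 for MII, 25.2 ± 12.3 for MIII and 25.9 ± 10.5 for MIV (SD, n = 3 each). These levels do not show whether MUC20 was transcribed in any line.

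The CEACAM proteins are immunoglobulin-like adhesion molecules. CEACAM1, whose long form carries inhibitory motifs in the cytoplasm, gave 6356, 6085 and 6193 in MII, 494, 497 and 538 in MIII, and 1610.0, 1682 and 1649 in MIV. The lines were far apart, and MIV retained 26.5% of the MII mean and MIII 8.21%. MIV differed from MIII by 1.66 ± 0.06 (SE) and from MII by -1.90 ± 0.06 on the log2 scale, and the difference of MIII from MII was -3.56 ± 0.06. Of its 5 probe sets, 4 placed MIV between MIII and MII. The dimmest, which is suffix-free, ran the other way between the carcinoma lines, with 66.8, 92.6 and 122 in MIV and 159, 146 and 143 in MIII. Its MII signals of 258 to 342 were also far below those of the other CEACAM1 probe sets.

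CEACAM6, a GPI-anchored relative, gave 4846, 4868 and 4822 in MII, 42.0, 58.4 and 58.4 in MIII, and 414, 488 and 418 in MIV. All 3 MIII arrays were under the pooled median and all MIV arrays were above it. The mean in MIV was 9.08% of that in MII, and the log2 difference from MIII was 2.69 ± 0.11 in MIV, that from MII was -3.41 ± 0.11 in MIV, and that from MII was -6.10 ± 0.11 in MIII. The second probe set averaged 3672 ± 548 for MII, 11.5 ± 6.0 for MIII and 326 ± 89.4 for MIV (SD, n = 3 each), so the pair gave the same order of lines.

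CEACAM5, the carcinoembryonic antigen, kept the smallest share of its MII signal in MIV among the 3. It gave 1788, 1824 and 1899 in MII, 47.9, 49.6 and 26.3 in MIII, and 97.3, 109.6 and 158 in MIV. The carcinoma lines did not overlap, but both were near the pooled median, and MIV had 6.62% of the MII mean. On the log2 scale, MIV differed from MIII by 1.23 ± 0.20 and from MII by -3.75 ± 0.20, and MIII differed from MII by -4.99 ± 0.20. With the offset raised to the pooled median, the change in MIV against MIII was 0.78, short of 2-fold. The second CEACAM5 probe set was dim in every line (97.9 ± 32.9 in MII, 82.9 ± 33.4 in MIII and 54.7 ± 38.9 in MIV) and its lines overlapped. Averaged over both probe sets, the difference was 0.33 for MIV against MIII, -2.27 for MIV against MII and -2.60 for MIII against MII.

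The GPI-anchored antigen PSCA, a small LY6-type protein first described in prostate, had the widest range of the 10 genes. Its single probe set gave 11889, 10925 and 11641 in MII, 12.8, 46.3 and 33.6 in MIII, and 2414, 2207 and 1882 in MIV. The MIII arrays were all under the pooled median, while those of MIV held 18.9% of the MII mean. MIV differed from MIII by 5.53 ± 0.19 (SE) and from MII by -2.40 ± 0.19 on the log2 scale, and the difference of MIII from MII was -7.93 ± 0.19.

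CD24, a short GPI-anchored mucin-like protein that binds P-selectin and Siglec-10, was measured by 6 probe sets. The brightest of them gave 21397, 23592 and 22592 in MII, 665, 792 and 784 in MIII, and 5662, 6038 and 5705 in MIV. The lines did not overlap, and MIV held 25.8% of the MII mean. The log2 difference from MIII was 2.93 ± 0.07 in MIV, that from MII was -1.95 ± 0.07 in MIV, and that from MII was -4.88 ± 0.07 in MIII. All 6 CD24 probe sets gave the same order, with log2 changes of 2.49 to 3.34 in MIV against MIII and of -2.50 to -1.95 in MIV against MII. Each of them has a suffix (_s_at or _x_at), so none excludes signal from related transcripts by its design. CD44, chosen for mention after its values were seen, averaged 10313.5 ± 419 for MII, 15576 ± 394 for MIII and 10673 ± 290.0 for MIV (SD, n = 3 each). Its change was -0.54 ± 0.05 in MIV against MIII and 0.59 ± 0.05 in MIII against MII, and it was not called in either.

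AGR2 gave 1300, 1048 and 1089 in MII, 98.4, 73.9 and 93.6 in MIII, and 360.0, 373 and 443 in MIV. MIV kept 34.2% of the MII mean, the highest share of the 8 genes that passed the filter. On the log2 scale, MIV differed from MIII by 1.94 ± 0.14 (SE) and from MII by -1.50 ± 0.14, and MIII differed from MII by -3.45 ± 0.14. A second, dim probe set exceeded the pooled median on 2 MII arrays and no others, and the average of both gave 0.98 in MIV against MIII, just short of 2-fold. AGR3, the neighbouring paralogue, was under the pooled median, with means of 12.5 to 25.1.

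**Figure D2:**
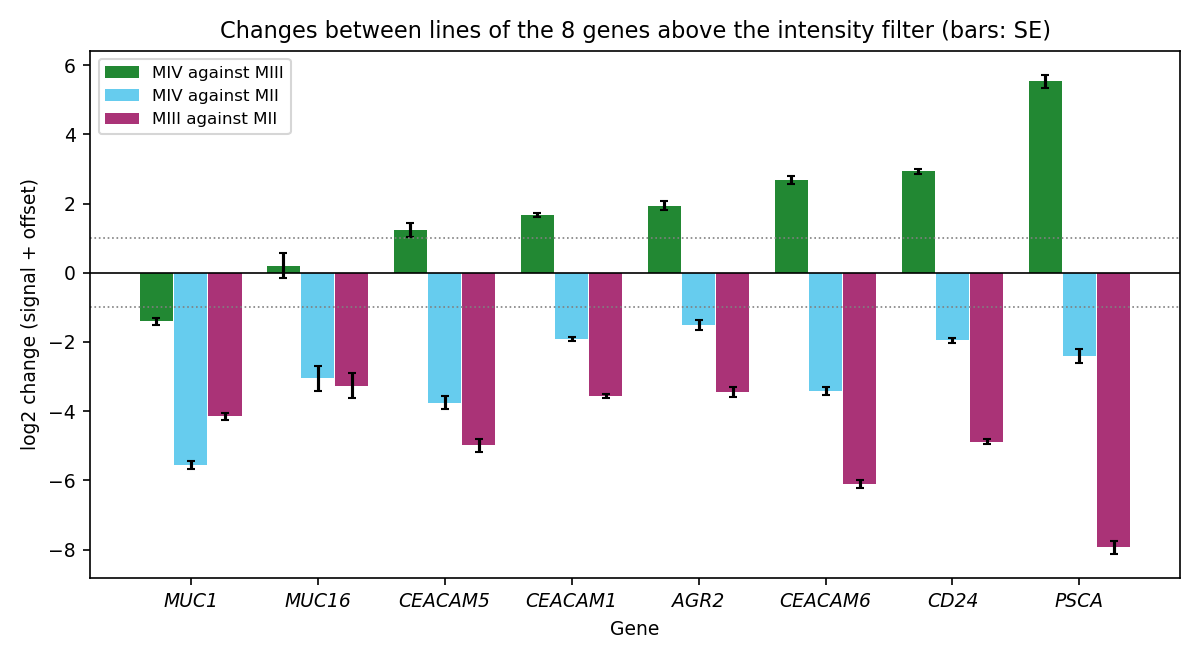
Log2 change of signal + 18.3 for the 8 genes above the filter, with 3 bars per gene (MIV against MIII, MIV against MII and MIII against MII) and error bars of 1 SE from limma; dotted lines mark 2-fold. All bars against MII point down, and in MIV against MIII the bars run from -1.40 for MUC1 to 5.53 for PSCA.

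The single probe sets belong to the same chosen genes, so nothing is read from their counts either. Probe sets of 1 gene are also not independent, and 6 of those that passed are of CD24 and 5 of CEACAM1. Of the 28 probe sets, 21 passed the filter, of which 19 were called lower in MIII than in MII and 20 lower in MIV than in MII, against 4.91% and 4.56% of the 24455 probe sets that passed. In MIV against MIII, 15 were called higher and 2 lower, against 4.47% and 7.23%. The probe sets that passed and were not called in at least 1 comparison were the dimmest of CEACAM1, CEACAM5 and MUC1, described above, and that of MUC16. The MUC1 one was under the pooled median in MIV alone and averaged 1251 in MII and 122 in MIII.

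**Figure D3:**
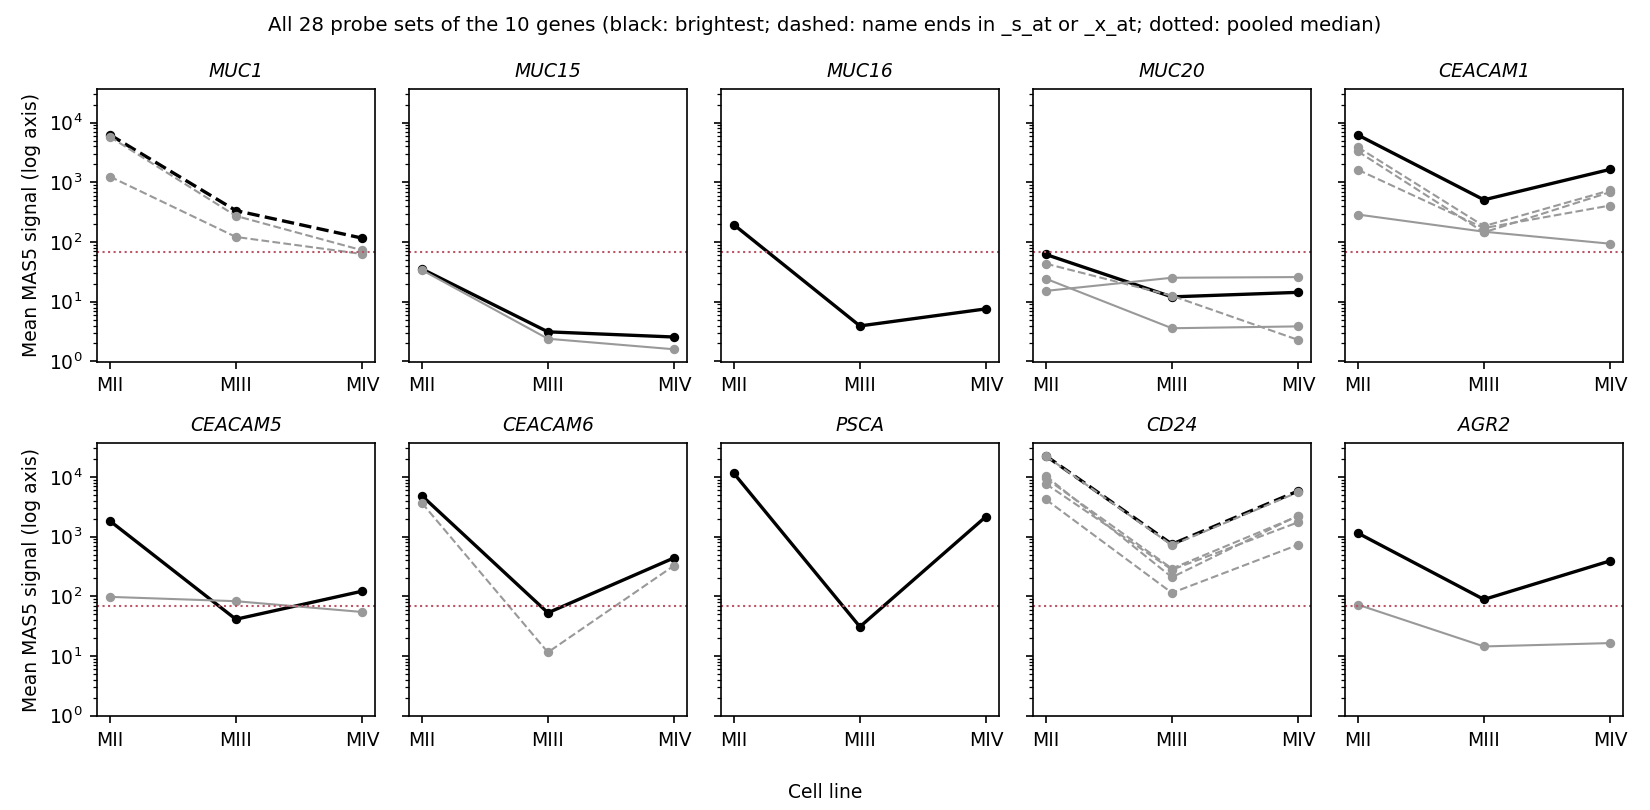
Mean MAS5 signal on a log axis (3 arrays per point) in MII, MIII and MIV for all 28 probe sets, 1 panel per gene; the black line is the brightest probe set, dashed lines are probe sets named _s_at or _x_at and the dotted line is the pooled median of 69.3. The 6 CD24 probe sets run in parallel, while the dimmest probe set of CEACAM1 and that of CEACAM5 are not higher in MIV than in MIII.

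The likeness of the genes among themselves was measured as the root mean square difference of their centred line means over the 3 lines, on the log2 scale. With 3 means per gene, some of the 12594 genes can come close to a pattern by chance. The matches are descriptions, and shared control was not tested. CEACAM1 and AGR2 were the closest pair at 0.17, and MUC1 and PSCA the farthest at 2.83. CEACAM5 and CEACAM6, which are next to each other on the chromosome, differed by 0.62. Over all genes tested, the gene closest to MUC1 was GDA, a guanine deaminase (0.10), followed by TENT5B (0.22) and CLIC3 (0.26). Closest to CD24 were TNNI2 (0.020), EPS8L1 (0.13) and SCEL (0.15), and closest to AGR2 were ZNF185 (0.018), the fucosyltransferase FUT3 (0.070) and GUCY1A1 (0.11).

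CEACAM1 was closest to the cornified envelope gene SPRR1A (0.062) and the epidermal transcription factor ZNF750 (0.079), and then to AGR2. MUC16 was closest to ATP10B (0.0065), involucrin IVL (0.10) and the protease TMPRSS11E (0.13). These MUC16 ranks are uncertain, since its changes depend on the offset and have an SE of 0.36. CEACAM5 was closest to NLGN4X (0.23), the protease inhibitor A2ML1 (0.32) and SPRR1B (0.34), and CEACAM6 to the kallikreins KLK6 (0.28) and KLK5 (0.46), with A2ML1 (0.38) between them. PSCA had no close match, the nearest being GABRP (0.65), SLC6A14 (0.87) and the claudin CLDN4 (1.02).

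Genes beside the 10 on their chromosomes were mostly not called. Of 22 tested neighbours that are not among the 10, within 2 protein-coding genes on either side, 4 were called in at least 1 comparison, as were 18.9% of all genes. CXCL17, a chemokine gene beside CEACAM1, was higher in MIV than in MIII (3.23 ± 0.26) and lower in MIII than in MII (-2.57 ± 0.26). ZNF558, near MUC16 (2.06 ± 0.22 and -2.97 ± 0.22), and the tetraspanin TSPAN13, near AGR2 (with -1.26 ± 0.06 for MIII against MII), had the same directions. AHR, on the other side of AGR2, was lower in MIV than in MIII (-1.37 ± 0.09) and than in MII (-1.11 ± 0.09). LY6K, JRK and THEM6 beside PSCA ranged from -0.39 to 0.14 in MIV against MIII, and CEACAM3 and CEACAM4 beside CEACAM5 had 0.23 and 0.017.

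The counts for the lists of related genes below stand beside the shares over all genes tested, which were 4.95% called higher and 7.79% lower for MIV against MIII, 2.96% higher and 5.18% lower for MIV against MII, and 6.17% higher and 5.55% lower for MIII against MII. The lists were chosen with results known. Of 16 other mucin genes, 13 were on the array and 5 were tested. MUC5B, a gel-forming secreted mucin, was lower in MIV (10.8 ± 6.0) than in MII (162 ± 34.3, SD, n = 3), as it was in MIII (6.5 ± 3.4). It passed the filter through its MII arrays alone, so a difference from MII was built into its selection, as it was for LY6D, ERP27, ST6GALNAC1 and ELF5 below. MUCL1, a small secreted mucin of the breast, was lower in MIV (30.2 ± 25.1) than in MIII (156 ± 44.7), with -1.94 ± 0.37. All of its MIV arrays were under the pooled median. Of 9 other CEACAM genes, 3 were tested. In limma 0 were called in any comparison and 0 had an unadjusted p under 0.05, with median log2 differences of 0.055 for MIV against MIII, 0.10 for MIV against MII and 0.087 for MIII against MII. Of 19 other LY6/uPAR genes, 7 were tested. LYPD3, a GPI-anchored relative of PSCA reported as a partner of AGR2, averaged 3143 ± 431 in MII, 1300.0 ± 179.9 in MIII and 391 ± 25.9 in MIV and was called lower in all 3 comparisons in limma. LY6D fell in MIV and in MIII against MII (-1.41 ± 0.40 and -1.81 ± 0.40), and PLAUR, the urokinase receptor, rose in MIII against MII (1.08 ± 0.06).

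Genes of the protein disulfide isomerase family and of O-glycan synthesis were set beside the 10 genes as well. Of 14 tested genes of the isomerase family other than AGR2, ERP27 alone was called, lower in MIV than in MII (-1.14 ± 0.36) and in MIII than in MII (-1.71 ± 0.36). With 1 of 14 genes this is near the shares called lower over all genes, and ERP27 passed the filter through its MII arrays alone. The limma p was under 0.05 before adjustment for 11 of the 14 where MIV was set against MIII, 6 for MIV against MII and 10 for MIII against MII. Such differences were common over all genes. With no fold minimum, 6530, 5310 and 5946 of the 12594 genes had a limma adjusted p under 0.05 in these comparisons. The adjusted p is a stricter measure than the unadjusted p used for the 14 genes, so these counts are not on the same footing. Of 21 tested genes of O-glycan synthesis, 3 rose and 5 fell in MIV against MIII, 4 fell in MIV against MII and 5 fell in MIII against MII, with medians of -0.31, -0.21 and -0.31. GALNT3, which starts O-glycan chains, was higher in MIV than in MIII by 1.74 ± 0.06, and B3GNT3, which extends them, by 2.07 ± 0.12, and both were lower in MIII than in MII (-1.52 ± 0.06 and -2.28 ± 0.12). GCNT3, a branching enzyme of mucin-type glycans, averaged 2191 ± 153 for MII, 78.1 ± 9.6 for MIII and 55.9 ± 37.6 for MIV (SD, n = 3). Its log2 difference from MII was -5.01 ± 0.26 in MIV and -4.52 ± 0.26 in MIII. The branching enzyme GCNT1 was lower in MIV than in MIII (-1.46 ± 0.12), as was GALNT12 (-1.88 ± 0.29). GALNT12 (-2.29 ± 0.29) and the sialyltransferases ST6GALNAC1 (-1.54 ± 0.34) and ST6GALNAC4 (657 ± 53.0 in MIV, against 1340.2 ± 171 in MII) were lower in MIV than in MII, and ST6GALNAC1 also in MIII than in MII (-1.25 ± 0.34).

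Among 14 tested binding partners and sheddases, 1 rose and 1 fell in MIV against MIII, 1 rose in MIV against MII, and 1 rose and 1 fell in MIII against MII. ERBB2, a receptor that MUC1 can associate with, was higher in MIV than in MIII (1.34 ± 0.08) and lower in MIII than in MII (-1.20 ± 0.08). ICAM1, a ligand of MUC1, was lower in MIV than in MIII (-1.14 ± 0.18) and higher than in MII in MIV (1.29 ± 0.18) and in MIII (2.43 ± 0.18).

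Luminal markers and epithelial transcription factors were set beside the 10 genes. Of 14 tested luminal markers, 6 rose and 1 fell in MIV against MIII (median 0.97), where 4.95% of all genes were called higher and 7.79% lower. Of the same markers, 3 fell in MIV against MII (median -0.23), against 5.18% of all genes, and 8 fell in MIII against MII (median -1.81), against 5.55%. Of 12 tested epithelial transcription factors, 6 rose in MIV against MIII (median 1.04), 4 fell in MIV against MII (median -0.62), and 8 fell and 1 rose in MIII against MII (median -1.96). The tight junction gene CLDN7 averaged 10233 ± 361 in MII, 23.5 ± 21.8 in MIII and 9825 ± 780.4 in MIV. CLDN4, the small GTPase RAB25 and ERBB3 were higher in MIV than in MIII by 5.07 ± 0.18, 5.93 ± 0.07 and 3.75 ± 0.31. Against MII their log2 differences in MIV were -0.51, 0.19 and -0.39, short of a call, whereas SLPI, an inhibitor of serine proteases, the keratin KRT23 and the oestrogen receptor ESR1 were lower (-1.48 ± 0.05, -4.91 ± 0.26 and -1.14 ± 0.27).

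Of the transcription factors, GRHL1 (3.22 ± 0.11), the splicing regulator ESRP1 on the same list (2.92 ± 0.06), GRHL2 (2.19 ± 0.15) and OVOL2 (2.18 ± 0.08) rose most in MIV against MIII. KLF4 (-0.87 ± 0.08), SPDEF (-0.63 ± 0.19) and GRHL3 (-0.28 ± 0.17), named because they went the other way, were short of a call there. GRHL3 was the factor called higher in MIII than in MII (1.22 ± 0.17). ELF3 and EHF, ETS factors of epithelia, were lower in MIV than in MII (log2 differences of -1.11 ± 0.08 and -1.21 ± 0.06), as were KLF4 (-1.83 ± 0.08) and ELF5 (-1.95 ± 0.47). Their means were 1131 for ELF3 and 2114 for EHF in MIV, and 2460 and 4918 in MII.

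**Figure D4:**
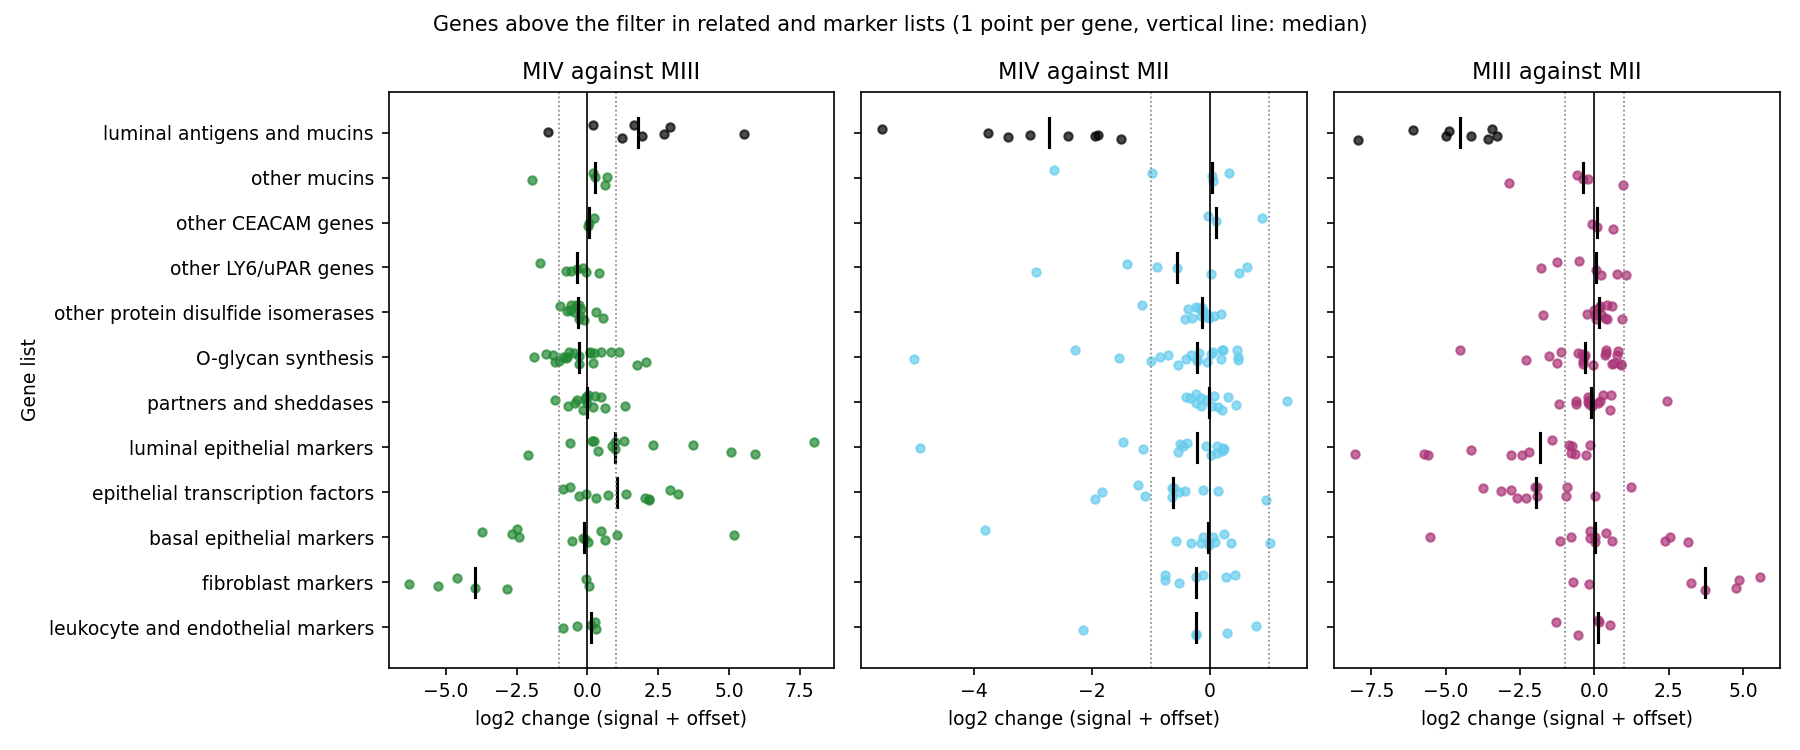
Log2 change of each tested gene (1 point per gene) in the luminal antigens and mucins (black) and in 11 related or marker lists, in 1 panel per comparison; vertical bars are list medians and dotted lines mark 2-fold. The medians of luminal markers and epithelial transcription factors are positive in MIV against MIII (0.97 and 1.04) and negative in MIII against MII (-1.81 and -1.96), and the fibroblast list runs the other way in those comparisons.

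The label of breast epithelium was checked against marker genes. The keratins KRT7, KRT8, KRT18 and KRT5 gave means of 10819.8 or more in every line. Of 22 luminal markers on the array, 6 were under the pooled median on all arrays of MII, 12 on those of MIII and 9 on those of MIV. The luminal keratin KRT19, LTF, PROM1 and CLDN3 were among them in every line. The basal keratin KRT14 averaged 137 in MIV. EPCAM, an epithelial adhesion molecule, averaged 17233 ± 230.1 for MII, 3737 ± 74.5 for MIII and 18773.5 ± 2385 for MIV. The lines thus carried luminal and basal keratins side by side. Of 12 tested basal markers, 2 rose and 4 fell in MIV against MIII, 1 rose and 1 fell in MIV against MII. In MIII against MII, MME (3.15 ± 0.39), TAGLN (2.56 ± 0.19) and MYLK (2.39 ± 0.22) rose, and KRT15 and KRT14 fell. MME passed the filter through its MIII arrays alone, so a difference from MIII was built into its selection. KRT15 was higher in MIV than in MIII (5.19 ± 0.07) and KRT14 was lower (-2.66 ± 0.11).

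The summed signal of the 10 fibroblast markers, carried by a few bright probe sets, was 1142 to 1197 in MII, 6531 to 6861 in MIII and 789.7 to 869.5 in MIV. That of the 10 genes described here was 54270 to 54860 in MII, 1705 to 1902 in MIII and 10370 to 11050 in MIV. It too was carried by a few bright probe sets, with CD24 at a mean of 22527 and PSCA at 11485 in MII, and CD24 at 5802 in MIV. The other order of MUC1 does not show in this sum. Of the 7 tested fibroblast markers 5 fell in MIV against MIII, led by POSTN (-6.31 ± 0.27) and DCN (-5.29 ± 0.29), and 5 rose in MIII against MII. POSTN, COL3A1 and LUM passed the filter through their MIII arrays alone. The other tested markers went another way: FAP, a fibroblast protease, averaged 678 ± 46.2 in MII, 405 ± 28.4 in MIII and 390.4 ± 37.5 in MIV, and COL1A1 had a log2 difference of -0.18 ± 0.18 for MIII against MII. In MIV against MII limma called 0 of them, and 2 had an unadjusted p under 0.05. COL1A2, PDGFRA and PDGFRB were under the pooled median on every MIII array. Of 11 leukocyte and endothelial markers on the array, 6 were under the pooled median on all arrays of MII, 6 on those of MIII and 6 on those of MIV, among them PTPRC, VWF and CDH5. CD14 was the one called, lower in MIV than in MII (-2.15 ± 0.10) and in MIII than in MII (-1.30 ± 0.10). The part of these markers in the results was not tested.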

How the data were processed

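The deposited table holds linear intensity values, which the submitters' processing notes name as MAS5 signals, and no version is named there. With 2% of values trimmed at either end, the mean was 500.07 on every array. Of 54675 probe sets, 41091 were annotated to 1 gene, 1801 to several, 11721 to none, and 62 were controls. Gene IDs of 41043 probe sets matched RefSeq (GRCh38.p14), which changed 0 symbols. The offset of 18.3 is the pooled 25th percentile. The probe set of highest mean stood for a gene, and 12594 genes passed the filter. A group-means model over all 9 arrays was fitted with limma 3.58.1 in R 4.3.3 (intensity trend, Benjamini-Hochberg over all genes, 6 residual degrees of freedom). The fit was tested on simulated data. The p-values measure the spread between arrays, which may be technical.

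The members and lists were chosen with earlier results of these data known. Named genes were the members with all probe sets, up to 4 called genes per related list and comparison with the largest change and arrays that do not overlap, the 3 genes of the most similar pattern, and tested neighbours within 2 protein-coding genes, those with LOC names left out. Alternatives changed the offset, the normalization, the filter, the variance prior, the choice of probe set, the block, the arrays and the call rule. EPCAM and the keratins of the marker check are defining markers of the lists. Promoters were aligned with Biopython 1.88 (7 of 10 genes had an entry). For genes with several starts, the entry listed at the top was used.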

Additional observations from a re-analysis of the deposited data

How the results depend on the processing

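The counts of called members changed by over 1.5 times under 1 alternative alone. At an adjusted p under 0.01 and 4-fold, the comparison of MIV with MIII kept 3 calls and that of MIV with MII kept 5, in place of 7 and 8. Averaging probe sets took the calls of CEACAM5 and AGR2 in MIV against MIII (0.33 and 0.98), and the offset at the pooled median took that of CEACAM5 (0.78). No called member changed direction. Suffix-free probe sets leave out MUC1 and CD24, and the filter at the pooled 75th percentile of 435.7 leaves out MUC16. Without a filter all 10 genes were called lower in MIII and in MIV than in MII, as were 779 and 734 of all 19775 genes. MUC15 and MUC20, added by this, were dim in every line. The MUC20 probe set next in brightness did not place MII highest. Over all genes, in MIV against MIII, MIV against MII and MIII against MII, the counts were 515, 257 and 499 at 4-fold, 6530, 5310 and 5946 without a fold minimum, and 893, 535 and 810 with the stricter filter. The offset at the pooled median gave 681 in MIV against MII. Leaving out single arrays gave 1563 to 1619, 1001 to 1031 and 1449 to 1487, with 7, 8 and 8 members called each time. With the replicate number as a block, 1607, 1026 and 1483 genes and the same numbers of members (7, 8 and 8) were called. The replicate numbers do not pair the arrays, as deviations of same-numbered arrays correlated at -0.039 to 0.039.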
